A study of Mus musculus with 4 samples.

Results

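The choroid plexus epithelium genes described here were Ttr, Folr1, Kl, Clic6, Slc4a5, Aqp1, Otx2, Enpp2 and Igfbp2, which are 9 of the 16339 named genes counted in the hypothalamus of WD-fed mice. They were taken by gene symbol after the RefSeq transcripts of each gene had been summed. They were read as a list of 7, and Enpp2 and Igfbp2 were kept apart because oligodendrocytes, astrocytes or the meninges make them too. Membership of the 7 is a choice and not a measure of purity, since Otx2 is also made in parts of the thalamus, and the levels of Kl and Clic6 did not follow that of Ttr. The data were RNA-seq of 4 libraries from male C57BL/6 mice, all of which had received a western diet (WD, a diet with 60% of its energy as fat together with a 30% sucrose solution) for 12 weeks. There were 2 libraries of WT littermates (WT WD) and 2 of mice that lack Tas1r3 throughout the body and from conception (Tas1r3-/- WD). Tas1r3 encodes the subunit shared by the sweet and umami taste receptors. No library of mice on a normal diet was analysed here, so the WD was common to both groups and its effect could not be measured. The labels number the libraries within each group but do not say whether each came from its own mouse, and the study describes more mice per group than the libraries analysed here, so the p-values given here measure the spread between these samples. The 4 libraries held 5917470 and 6177210 expected counts in WT WD, compared with 6273772 and 5874782 in Tas1r3-/- WD. Levels are given as CPM, the count of a gene scaled to the library's genes that passed the low count filter, after TMM scaling. At this depth 1 CPM stood for 5.7 to 6.22 counts, and a count of 0 allowed up to 0.482 to 0.526 CPM.

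Before any comparison, the libraries were checked against their labels. Tas1r3 stood at 6.07 and 4.45 CPM in WT WD, against 1.12 and 1.23 CPM in Tas1r3-/- WD, so the groups did not overlap in the direction of the genotype. The tissue label did not hold equally in all libraries. Of 20 marker genes of the hypothalamus, all 20 were at least 2-fold lower in WT WD replicate 2 than in WT WD replicate 1, and their summed level was 2261, 68.1, 1618 and 1567 CPM in WT WD replicates 1 and 2, then Tas1r3-/- WD replicates 1 and 2. Nkx2-1 and Nr5a1, transcription factors that define hypothalamic territory, were at 41.6 and 32.7 CPM in WT WD replicate 1 and had no counts in WT WD replicate 2, which allows up to 0.494 CPM (both were chosen after their values were seen). Tas1r3-/- WD replicate 1 stood apart in another way, since 8 pituitary genes summed to 1456 CPM in it, against 14.6, 2.25 and 4.56 CPM in WT WD replicates 1 and 2, then Tas1r3-/- WD replicate 2. Gh, Prl and Cga, which encode pituitary hormones or a subunit of them, led that list, Gh at 762 CPM in Tas1r3-/- WD replicate 1. The genotype differences of the members, and of other genes and lists where one is given, are therefore given with all libraries and without WT WD replicate 2.

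The choroid plexus is a fold of vascular tissue in the ventricles of the brain, covered by a single epithelium that makes most of the cerebrospinal fluid. The epithelium lies, among other places, in the roof of the third ventricle, above the thalamus and close to the habenula, and is not part of the hypothalamus itself. Its cells secrete carrier proteins and growth factor binding proteins, and move ions, bicarbonate, water and folate between blood and ventricle. Because transthyretin mRNA is extremely abundant in this epithelium and rare in brain parenchyma, its transcript serves as the usual sign of choroid plexus in a brain sample. In bulk RNA, fewer cells of a type and less RNA per cell cannot be told apart.

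Promoters of 5 members, with 9 start sites in all, were read from the RefSeq promoter table (build GRCm38.p6). Those of Ttr, Folr1, Clic6 and Enpp2 were not read, which does not show that the table lacks them. Every one of the 9 sequences of 300 bases had a single exact match in GRCm39, from which the coordinates are given. One promoter of each of these 5 members is shown. Slc4a5, Aqp1, Otx2 and Igfbp2 were high in the same library, as described below, while Kl was not. Whether these sequences bear on that difference was not tested. Each sequence runs 5′ to 3′ on the strand of the gene, from 250 bases before to 50 bases after the start site. Capitals mark GGATTA, the motif of bicoid-type homeodomain proteins, the class to which OTX2 belongs, TATAAA, the TATA box, and GGGCGG, the GC box, each searched on both strands, so that a match on the other strand appears as its reverse complement.
Slc4a5, chr6:83214107-83214406, plus strand: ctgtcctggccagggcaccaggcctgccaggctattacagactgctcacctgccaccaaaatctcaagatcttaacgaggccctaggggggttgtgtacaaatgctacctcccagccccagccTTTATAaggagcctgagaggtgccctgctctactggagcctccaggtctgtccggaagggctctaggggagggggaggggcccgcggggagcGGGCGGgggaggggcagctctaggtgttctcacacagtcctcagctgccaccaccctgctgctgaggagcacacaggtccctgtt
Aqp1, chr6:55313034-55313333, plus strand: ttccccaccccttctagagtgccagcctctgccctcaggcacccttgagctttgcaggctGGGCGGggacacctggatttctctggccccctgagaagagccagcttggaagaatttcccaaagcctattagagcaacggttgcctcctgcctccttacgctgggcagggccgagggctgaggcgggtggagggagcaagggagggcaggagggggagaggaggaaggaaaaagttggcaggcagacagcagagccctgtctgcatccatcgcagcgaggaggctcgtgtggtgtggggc
Otx2, chr14:48902517-48902816, minus strand: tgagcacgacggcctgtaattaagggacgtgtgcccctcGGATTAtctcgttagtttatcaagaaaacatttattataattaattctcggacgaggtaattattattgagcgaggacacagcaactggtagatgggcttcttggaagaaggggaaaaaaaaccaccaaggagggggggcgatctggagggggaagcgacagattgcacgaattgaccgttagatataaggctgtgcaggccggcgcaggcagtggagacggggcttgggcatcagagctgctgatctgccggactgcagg
Igfbp2, chr1:72863389-72863688, plus strand: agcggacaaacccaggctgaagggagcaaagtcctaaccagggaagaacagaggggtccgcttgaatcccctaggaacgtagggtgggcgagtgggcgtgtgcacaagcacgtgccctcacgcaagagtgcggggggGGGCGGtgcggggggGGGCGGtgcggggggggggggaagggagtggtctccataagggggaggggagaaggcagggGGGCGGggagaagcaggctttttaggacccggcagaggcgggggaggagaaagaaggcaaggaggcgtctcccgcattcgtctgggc
Kl, chr5:150875822-150876121, plus strand: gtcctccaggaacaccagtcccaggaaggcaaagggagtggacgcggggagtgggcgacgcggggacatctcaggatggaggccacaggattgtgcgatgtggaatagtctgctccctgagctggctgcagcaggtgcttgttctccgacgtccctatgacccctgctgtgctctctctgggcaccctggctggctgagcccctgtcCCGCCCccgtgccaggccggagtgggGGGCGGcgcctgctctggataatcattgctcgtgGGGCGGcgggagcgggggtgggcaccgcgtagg
The Slc4a5 promoter held a TATA box 127 bases upstream of the start site and a GC box 35 bases upstream. The Aqp1 promoter held a single GC box, 190 bases upstream. In Otx2 the match to GGATTA lay 211 bases upstream, in the promoter shown and in no other of its 4 promoters. None of these 4 held a GC box. Another of the Otx2 promoters held a TATA box, 192 bases upstream. The Igfbp2 promoter shown held GC boxes at 113, 98 and 37 bases upstream, and Kl at 43 and 17 bases upstream and 17 bases downstream, while the other Igfbp2 promoter held none of the 3 motifs. Of the 32851 promoters in the table, 7.06% held GGATTA, 13.6% held TATAAA and 35.7% held GGGCGG, so the GC box, which both Kl and members that were high in WT WD replicate 2 carried, is a common match. These letters are descriptions of the windows and not sites shown to be used.

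Transthyretin (Ttr, chromosome 18), the secreted carrier of thyroxine and of retinol-binding protein, showed the widest range of the members. Its expected counts were 25 and 4116 in WT WD replicates 1 and 2, against 19 and 4 in the Tas1r3-/- WD ones. These equal 4.29 and 678 CPM in WT WD, versus 3.05 and 0.701 CPM in Tas1r3-/- WD. WT WD replicate 2 alone was high, and WT WD replicate 1 lay next to Tas1r3-/- WD replicate 1, although the groups did not overlap. Between the WT WD libraries Ttr differed 158-fold (exact 95% interval of the counts 107 to 244), and it ranked 4th of 16339 genes by the log2 difference between them. Intervals of this kind cover counting error only, and not the spread between samples.

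Folr1, Igfbp2 and Enpp2, whose proteins sit on the cell surface or are secreted, had their highest level in the same library as Ttr. Folr1, chromosome 7, the folate receptor through which the choroid plexus delivers folate to the brain, had 2 and 55 expected counts in WT WD, compared with 10 and 1 in Tas1r3-/- WD, or 0.344 and 9.06 CPM and 1.61 and 0.175 CPM. WT WD replicate 2 was highest, the groups overlapped, and Tas1r3-/- WD replicate 1 was above WT WD replicate 1. The ratio of the WT WD libraries was 26.4 (exact 95% interval 6.96 to 223), a wide interval, since WT WD replicate 1 held 2 counts. Igfbp2, chromosome 1, a binding protein for insulin-like growth factors that is secreted into the cerebrospinal fluid, was at 7.04 and 36.2 CPM in WT WD, against 9.24 and 4.38 CPM in Tas1r3-/- WD. It was again highest in WT WD replicate 2, by 5.15-fold over WT WD replicate 1 (exact 95% interval 3.67 to 7.37), and again the groups overlapped. The Tas1r3-/- WD libraries also differed from each other in Igfbp2, replicate 1 being 2.13-fold above replicate 2 (1.31 to 3.55). Enpp2, chromosome 15, which encodes autotaxin, the secreted enzyme that makes lysophosphatidic acid, was at 138 and 370 CPM in WT WD, versus 149 and 136 CPM in Tas1r3-/- WD. Here WT WD replicate 2 was 2.68-fold above replicate 1 (2.47 to 2.91), while WT WD replicate 1 lay between the Tas1r3-/- WD libraries.

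The transporters and channels of the epithelium split into those that were high in WT WD replicate 2 and one that was not. Slc4a5, chromosome 6, a sodium bicarbonate cotransporter of the apical membrane, had 3 and 33 expected counts in WT WD, compared with 4 and 4 in Tas1r3-/- WD, or 0.515 and 5.44 CPM and 0.643 and 0.702 CPM. Aqp1, also on chromosome 6, the water channel of the apical membrane, had 2 and 20 expected counts in WT WD, against 4.01 and 3 in Tas1r3-/- WD, or 0.344 and 3.30 CPM and 0.644 and 0.526 CPM. Both were highest in WT WD replicate 2, and at 2 to 4 counts no order among the other libraries was detectable. The ratios of the WT WD libraries were 10.6 for Slc4a5 (exact 95% interval 3.31 to 53.8) and 9.59 for Aqp1 (2.33 to 84.6). Clic6, chromosome 16, a member of the chloride intracellular channel family, was at 40.9 and 33.3 CPM in WT WD, versus 35.6 and 30.9 CPM in Tas1r3-/- WD. In contrast to the genes above, Clic6 was highest in WT WD replicate 1, and the whole range over libraries was within 1.5-fold. Its ratio between the WT WD libraries was 0.814 (0.672 to 0.986).

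Otx2, chromosome 14, is the homeodomain transcription factor that specifies and maintains the choroid plexus, and it is also made in parts of the thalamus. It was at 0.731 and 19.0 CPM in WT WD, compared with 1.12 and 2.10 CPM in Tas1r3-/- WD. WT WD replicate 2 was highest, 25.9-fold above replicate 1, and the next highest library was Tas1r3-/- WD replicate 2. With counts rounded to whole numbers, 4 in WT WD replicate 1, the ratio of the WT WD libraries was 27.6 (exact 95% interval 10.5 to 103). Kl, chromosome 5, which encodes klotho, the coreceptor of fibroblast growth factor 23 that is also shed into the cerebrospinal fluid, gave 12.2 and 12.0 CPM in WT WD, against 9.58 and 5.61 CPM in Tas1r3-/- WD. The WT WD libraries differed in Kl by less than the counting error (ratio 0.986, 0.702 to 1.39), both Tas1r3-/- WD libraries lay below both WT WD libraries, and Tas1r3-/- WD replicate 1 was 1.72-fold above replicate 2 (1.10 to 2.73). Kl was thus the one member other than Ttr whose groups did not overlap. Across all 16339 genes, 18.5% had both Tas1r3-/- WD libraries below both WT WD libraries, so 2 of 9 members is close to this background.

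**Figure D1:**
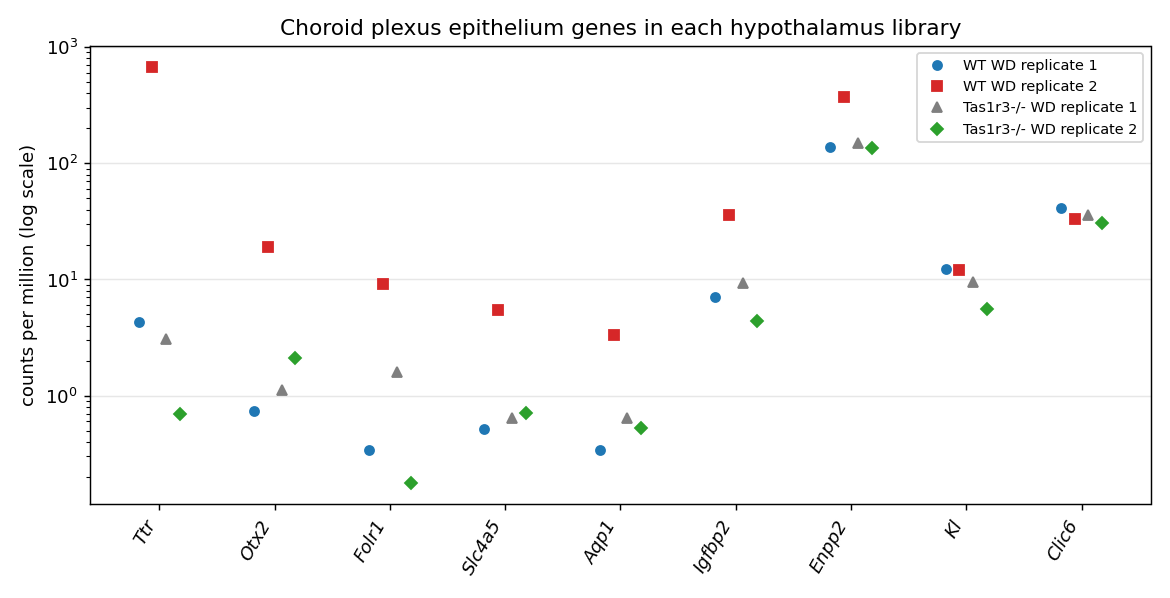
Level of each of the 9 genes in CPM on a log scale, with 1 point per library, ordered by the difference between the WT WD libraries. The point of WT WD replicate 2 stands above the other 3 for Ttr, Otx2, Folr1, Slc4a5, Aqp1, Igfbp2 and Enpp2, from 678 CPM for Ttr to 3.30 CPM for Aqp1, and lies among the other points for Kl and Clic6.

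Judged by the difference between the WT WD libraries, 7 of the 9 members were at least 2-fold higher in WT WD replicate 2 than in WT WD replicate 1 on the scale of log2 CPM with a prior count of 2, and none was as much lower. Over all 16339 genes 7.04% were at least 2-fold higher and 6.66% at least 2-fold lower. With 4-fold in place of 2-fold, a threshold chosen after the data were seen, 5 of the 7 and Igfbp2 passed, against 1.92% of all genes, and Enpp2 fell short with a log2 difference of 1.42. The log2 differences were 7.20 for Ttr, 4.24 for Otx2, 3.79 for Folr1, 2.76 for Slc4a5, 2.42 for Aqp1 and 2.31 for Igfbp2. They were -0.019 for Kl and -0.29 for Clic6, where the median over all genes was -0.0080. Between the Tas1r3-/- WD libraries the same quantity, replicate 2 minus replicate 1, was -1.93 for Folr1, -1.71 for Ttr and -1.03 for Igfbp2, and was within 1 for the other 6 members.

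The summed level of the 7 members other than Enpp2 and Igfbp2 was 59.3 and 760 CPM in WT WD, versus 52.2 and 40.7 CPM in Tas1r3-/- WD. Without Ttr it was 55.0 and 82.1 CPM and 49.2 and 40.0 CPM, so the excess in WT WD replicate 2 was for the most part Ttr. Without Kl and Clic6, the members that did not follow the rest and so chosen after their values were seen, it was 6.23 and 715 CPM and 7.07 and 4.20 CPM. Because longer transcripts give more reads, levels of different genes were compared per kilobase of the Ensembl canonical transcript. On that scale Ttr was the most abundant of the 7 in WT WD replicate 2, with 515 CPM per kilobase and 95.4% of the sum over the 7. In the other libraries Clic6 was the most abundant of the 7 and made up 57.1% to 72.2% of their sum, so that the sum there was for the most part a gene that did not follow Ttr. Clic6 stood at 9.32, 8.11 and 7.05 CPM per kilobase in WT WD replicate 1 and Tas1r3-/- WD replicates 1 and 2. Ttr made up 20.8%, 16.3% and 5.46% of the sum in these. With Enpp2 and Igfbp2 included, Enpp2 was the most abundant member per kilobase in those libraries, at 28.9, 31.2 and 28.5 CPM per kilobase, and stood at 77.6 in WT WD replicate 2, below Ttr. The order of the 7 per kilobase in WT WD replicate 2 was Ttr, Clic6 (7.59), Folr1 (6.83), Otx2 (5.79), Kl (2.35), Aqp1 (1.11) and Slc4a5 (1.08). Clic6, Folr1 and Otx2 were close to each other in that order, as were Aqp1 and Slc4a5, and with 1 library no spread over samples stands behind it.

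The comparison of genotypes asks whether these genes differed between WD-fed mice with and without Tas1r3. In the edgeR quasi-likelihood test over 14344 genes, 0 genes had an adjusted p under 0.05 with at least 1.5-fold change (0% called), and 772 genes (5.38%) had an unadjusted p under 0.05. DESeq2 called 8 genes (0.0558%), none of them a member, and gave 393 genes with an unadjusted p under 0.05. Folr1, Slc4a5 and Aqp1 were too low for the filter of the edgeR fit, so 6 of the 9 members were tested in it, and the values of those 3 members come from a fit without the filter. With 2 libraries against 2, an exact permutation test cannot give a p below 0.333, so none is given for single genes or for the summed level.

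Ttr had a log2 fold change of -7.47 (Tas1r3-/- WD over WT WD, standard error (SE) 2.50, edgeR unadjusted p = 0.0317, adjusted p = 0.757), with group means of 341 ± 476 CPM in WT WD and 1.88 ± 1.66 CPM in Tas1r3-/- WD (SD, n = 2 each). The SD in WT WD was larger than the mean. In edgeR Ttr was the one member with an unadjusted p under 0.05, and 1.88% of all genes tested had such a p with a lower level in Tas1r3-/- WD. The log2 fold changes of the other tested members were -2.60 for Otx2 (SE 1.41), -1.65 for Igfbp2 (SE 0.84), -0.83 for Enpp2 (SE 0.47), -0.66 for Kl (SE 0.33) and -0.16 for Clic6 (SE 0.18). In edgeR their adjusted p was 0.757, and 0.819 for Clic6. Which members had an unadjusted p under 0.05 depended on the tool. DESeq2 gave one to Ttr (0.00131), Igfbp2 (0.0341) and Otx2 (0.0360), and limma-trend gave one to no member (0.0952 for Ttr). Without the filter, edgeR gave -2.34 for Folr1 (SE 1.52), -2.11 for Slc4a5 (SE 1.15) and -1.60 for Aqp1 (SE 1.13), with adjusted p of 0.790, 0.790 and 0.796. In that fit Ttr was again the one member with an unadjusted p under 0.05, against 1.77% of all genes in this direction. All 9 log2 fold changes were below 0 in it, with a median of -1.65, where 50.8% of 16339 genes were below 0 and the median of all was -0.0055. None of these differences passed the test.

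Leaving out WT WD replicate 2 changed this picture for most members. The log2 fold change of Ttr became -1.16 (edgeR adjusted p = 0.523), that of Enpp2 0.046 and that of Igfbp2 -0.030. Otx2 turned to 1.20, and without the filter Folr1 turned to 1.35, Aqp1 to 0.74 and Slc4a5 to 0.37. With this library left out, 4 of 9 members were below 0 and their median was 0.046, where 49.5% of all genes were below 0 and their median was 0.0037. Kl, at -0.67, and Clic6, at -0.30, kept their direction, and neither passed the test (edgeR adjusted p = 0.456 and 0.453). For Kl the value was about the same as with all libraries. Without Tas1r3-/- WD replicate 1, the library with pituitary genes, the log2 fold changes of all 9 members were below 0. The share of all genes below 0 was not counted for that fit.

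Leaving out WT WD replicate 1 instead, so that WT WD replicate 2 stood alone for its group and was assumed to vary like the other libraries, 7 of the 9 members were called lower in Tas1r3-/- WD in the fit without the filter, where 6.58% of 16338 genes were called lower. Ttr then had a log2 fold change of -8.44 (edgeR adjusted p = 2.68e-11), Otx2 -3.54 (8.74e-06), Igfbp2 -2.38 (1.62e-05) and Enpp2 -1.37 (4.23e-07). Folr1 was at -3.27 (edgeR adjusted p = 0.00172), Slc4a5 at -2.97 (0.00406) and Aqp1 at -2.44 (0.0389). In the fit with the filter, where 6.75% of 14841 genes were called lower, these 3 were tested only because of their counts in WT WD replicate 2, and without that library they did not pass it. Kl (-0.64, adjusted p = 0.216) and Clic6 (0.0052, adjusted p = 0.989) were the ones not called. With WT WD replicate 2 left out, 0.034% of 14714 genes were called lower and 0 members were, nor were any without the filter, where 0.147% of genes were called lower. The calls on the members therefore rested on which WT WD library was kept. Genes of the thalamus and habenula, red blood cells and ependyma were also high in WT WD replicate 2, and hypothalamus genes low, as described below.

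**Figure D2:**
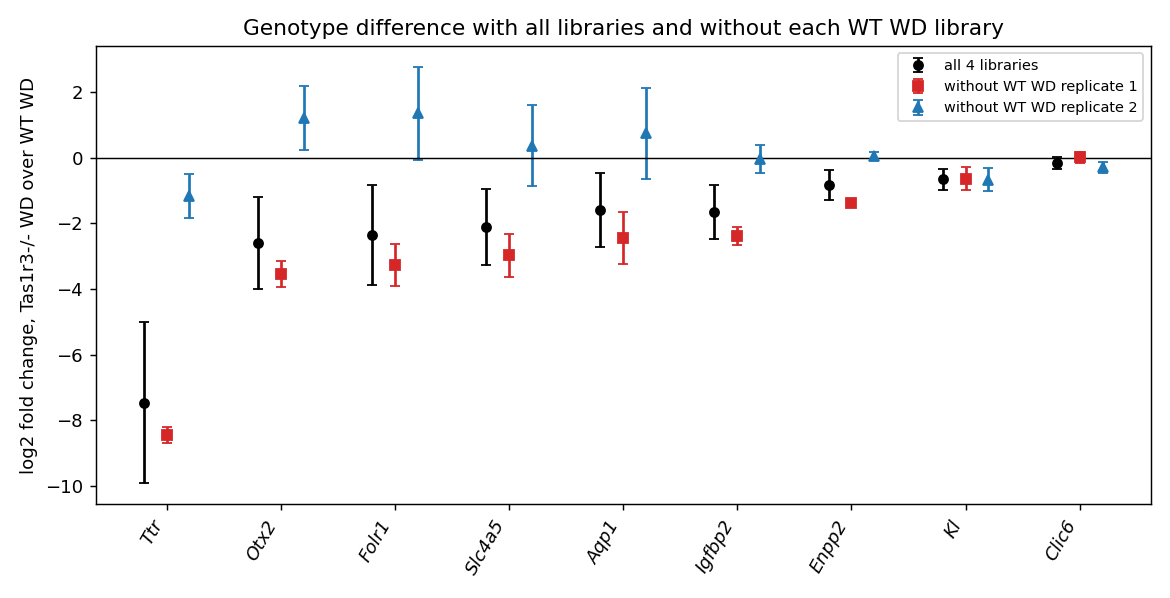
Log2 fold change (Tas1r3-/- WD over WT WD) of each member from edgeR without the low count filter, with bars of 1 SE, for all 4 libraries and with either WT WD library left out. For Ttr the value runs from -8.44 without WT WD replicate 1 to -1.16 without WT WD replicate 2, whereas the 3 values of Kl lie on top of each other near -0.66.

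Of the members, 4 were counted as more than 1 RefSeq transcript. Enpp2 had 4, of which NM_015744 was the most abundant in every library, at 56.8% and 54.1% of the gene in WT WD, against 56.7% and 50.3% in Tas1r3-/- WD. NM_001285994 of Enpp2 held 35.0% and 36.2% in WT WD, versus 31.5% and 43.5% in Tas1r3-/- WD. The higher Enpp2 level of WT WD replicate 2 was spread over its transcripts, NM_015744 having 457 and 1216 expected counts in WT WD and NM_001285994 281 and 813. Igfbp2 had 2 transcripts, of which NM_001310659 held 34.8% and 60.7% in WT WD, compared with 58.9% and 73.3% in Tas1r3-/- WD. In WT WD replicate 1 it was the minor one and in the other libraries the major one, on 14.3, 133, 33.9 and 18.3 expected counts in library order. The 4 transcripts of Otx2 shared the 115 counts of WT WD replicate 2 about evenly, between 20.4% and 29.7% each. The 4 transcripts of Folr1 had the same shares in WT WD replicate 1 and both Tas1r3-/- WD libraries, with 58.6% for NM_001252554 in each on 1 to 10 counts per gene, and other shares in WT WD replicate 2, with 24.7% for the same transcript. At those counts, which Folr1 transcript was present in the 3 libraries was not detectable.

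A wider list of 30 further choroid plexus genes, of which 28 were counted, gave a measure beyond the 9 members. Of the 28, 13 were at least 2-fold higher in WT WD replicate 2 than in WT WD replicate 1 and 1 was at least 2-fold lower, against 7.04% and 6.66% of all genes. WT WD replicate 2 was the highest of the 4 libraries for 19 of the 28. Their median log2 difference between the WT WD libraries was 0.93. In the genotype test 22 of them were tested, 16 below 0 and 6 above, with a median log2 fold change of -0.36 against -0.0057 over all genes tested, and 0 were called. Without WT WD replicate 1, 12 of the 28 were called lower and 3 higher in the unfiltered fit, in which 6.58% of genes were called lower and 7.34% higher. Without WT WD replicate 2, 0 were called, and of the same 22 genes 11 were below 0 and 11 above, with a median of 0.047.

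The genes of the wider list with the lowest log2 fold changes among those tested were Ecrg4, Calml4 and F5. Ecrg4, which encodes the secreted peptide precursor augurin, was at 2.92 and 23.2 CPM in WT WD, compared with 1.61 and 0.526 CPM in Tas1r3-/- WD (log2 fold change -3.57, edgeR unadjusted p = 0.0301, adjusted p = 0.757), and its log2 fold change was -1.41 without WT WD replicate 2 (edgeR adjusted p = 0.464). Calml4, a calmodulin-like protein, was at 1.55 and 16.5 CPM in WT WD, against 1.93 and 2.28 CPM in Tas1r3-/- WD. F5, coagulation factor V, was at 1.89 and 13.7 CPM in WT WD, versus 2.57 and 2.81 CPM in Tas1r3-/- WD. All 3 were highest in WT WD replicate 2. Calml4 turned from a log2 fold change of -2.09 to 0.44 without that library, and F5 from -1.53 to 0.50. The 3 with the highest log2 fold changes were Lmx1a, Prlr and Slc29a4, and each was lowest in WT WD replicate 2. Lmx1a, a transcription factor of the roof plate, was at 2.80 and 1.81 CPM in WT WD, compared with 6.59 and 7.55 CPM in Tas1r3-/- WD (log2 fold change 1.62, edgeR unadjusted p = 0.00745, adjusted p = 0.757), with groups that did not overlap, and its log2 fold change was 1.35 without WT WD replicate 2 (edgeR adjusted p = 0.258). Prlr, the prolactin receptor, which hypothalamic neurons make as well, was at 28.2 and 7.51 CPM in WT WD, against 41.6 and 42.9 CPM in Tas1r3-/- WD. Slc29a4, a monoamine transporter, was at 35.9 and 18.0 CPM in WT WD, versus 38.1 and 31.0 CPM in Tas1r3-/- WD. Without WT WD replicate 2 the log2 fold change of Prlr went from 1.24 to 0.59 and that of Slc29a4 from 0.36 to -0.052, and no gene of the 6 passed the test with or without it.

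The most abundant genes of the wider list by CPM, Ace, Sulf1 and Slc5a5, did not follow Ttr. Ace, angiotensin-converting enzyme, was at 55.5 and 58.7 CPM in WT WD, compared with 63.4 and 65.6 CPM in Tas1r3-/- WD. Sulf1, an extracellular sulfatase, was at 52.0 and 43.7 CPM and at 56.6 and 40.0 CPM, and Slc5a5, the sodium iodide symporter, at 30.1 and 36.8 CPM and at 37.4 and 43.3 CPM. Like Kl and Clic6 they were at the same order of level in every library. Kcnj13, chosen after its values were seen, a potassium channel of the apical membrane, was at 0.283 and 10.4 CPM in WT WD, against 0.644 and 0.175 CPM in Tas1r3-/- WD.

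**Figure D3:**
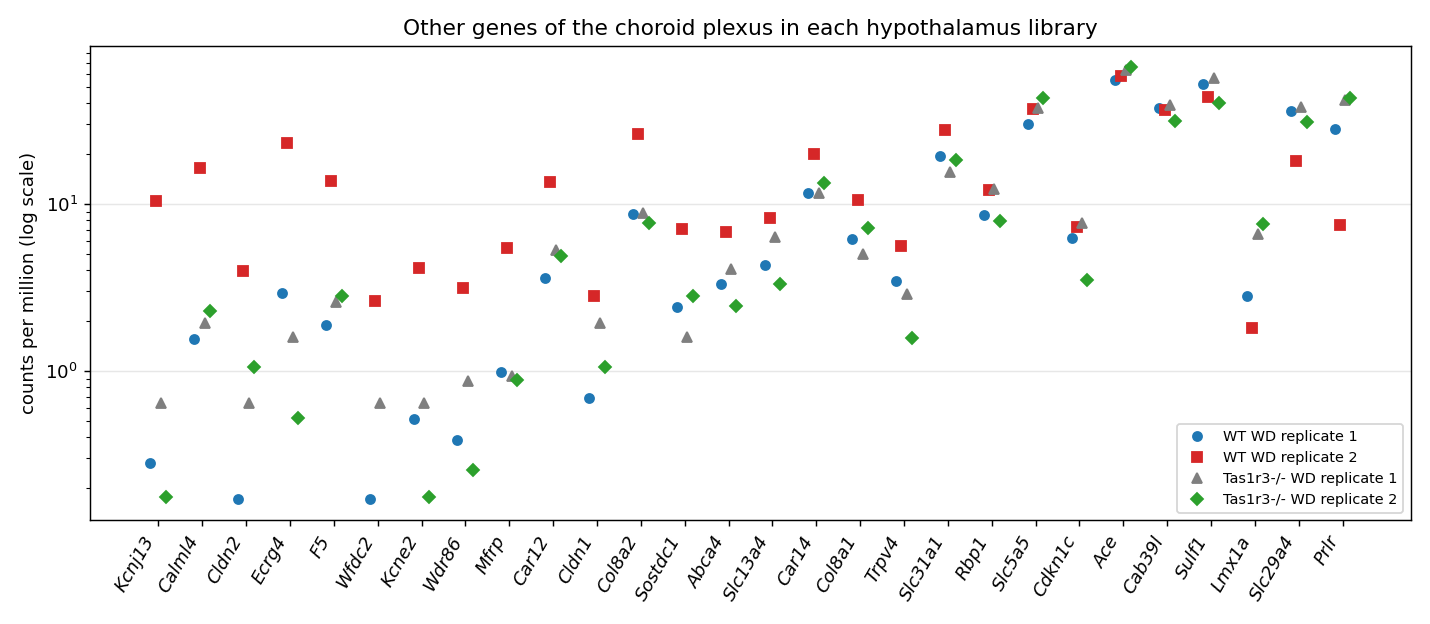
Level in CPM on a log scale of the 28 further choroid plexus genes, with 1 point per library, ordered from left to right by the difference between the WT WD libraries; a library with no counts has no point, which applies to Wfdc2 in Tas1r3-/- WD replicate 2. On the left WT WD replicate 2 stands above the other points, for Kcnj13 at 10.4 CPM, and at the far right it is lowest, for Prlr at 7.51 CPM.

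The ion pumps and transporters with which the epithelium makes fluid are also made by neurons and glia, and they did not move with Ttr. Of 14 such genes, all 14 were within 2-fold between the WT WD libraries, 7 had log2 fold changes above 0 and 7 below, and the list's median was -0.011, or -0.052 without WT WD replicate 2. Their summed level was 3851 and 4086 CPM in WT WD, versus 3856 and 3912 CPM in Tas1r3-/- WD. Atp1b2 and Atp1b1, beta subunits of the sodium pump, were among the most abundant, and Atp1b2 was at 1475 and 1485 CPM in WT WD, compared with 1502 and 1487 CPM in Tas1r3-/- WD. None of the 14 passed the test.

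Genes that handle the cargo of transthyretin, thyroid hormone and retinol, were counted for 13 of 14 listed. Between the WT WD libraries 9 were within 2-fold, 1 was higher in replicate 2 and 3 were lower, and the median log2 fold change between genotypes was 0.07, with 0 called. With WT WD replicate 2 left out this median was -0.055, and in the fit without the filter Dio2, a deiodinase that activates thyroid hormone, was called higher (log2 fold change 1.18, edgeR adjusted p = 0.0270). That call was lost with the filter (adjusted p = 0.0932), and with all libraries the log2 fold change of Dio2 was 0.79 (edgeR adjusted p = 0.757). Thra, the thyroid hormone receptor alpha, was at 951 and 705 CPM in WT WD, against 827 and 855 CPM in Tas1r3-/- WD. Slc7a5 and Slc7a8 are amino acid transporters that also carry thyroid hormone. Slc7a5 was at 76.3 and 81.1 CPM in WT WD, versus 95.9 and 108 CPM in Tas1r3-/- WD (log2 fold change 0.38, edgeR unadjusted p = 0.0377, adjusted p = 0.757; log2 fold change 0.42 and adjusted p = 0.196 without WT WD replicate 2), whereas Slc7a8 was at 49.6 and 149 CPM and at 41.3 and 49.5 CPM. Slc7a8 was the one gene of this list at least 2-fold higher in WT WD replicate 2. Rbp4, whose protein transthyretin carries, was at 4.81 and 2.14 CPM in WT WD, compared with 3.70 and 3.68 CPM in Tas1r3-/- WD, and was lowest in the library in which Ttr was highest (Rbp4 was chosen after its values were seen).

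In the insulin-like growth factor system, 17 of 18 listed genes were counted, Igfbp2 among them. Of these, 14 were within 2-fold between the WT WD libraries, 2 were higher in replicate 2 and 1 was lower. The most abundant were Igfbp5 (248 and 416 CPM in WT WD, 296 and 248 CPM in Tas1r3-/- WD), Irs2 and Htra1. Irs2, a substrate of the insulin receptor, was at 113 and 147 CPM in WT WD, against 186 and 180 CPM in Tas1r3-/- WD (log2 fold change 0.49, edgeR unadjusted p = 0.0366, adjusted p = 0.757). Without WT WD replicate 2 its log2 fold change was 0.69, called in the fit without the filter (edgeR adjusted p = 0.00995) and not with it (0.0527). Of the 17 genes 0 were called, and the median log2 fold change was 0.25 over the 16 tested, or 0.21 without WT WD replicate 2. The ligand Igf1, chosen after its values were seen, was at 2.38 and 15.1 CPM in WT WD, versus 3.36 and 5.07 CPM in Tas1r3-/- WD, and with Igfbp2 it made up the 2 genes that were higher in WT WD replicate 2.

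Lysophosphatidic acid, the product of Enpp2, has receptors and phosphatases of which 10 were counted, Enpp2 included. Apart from Enpp2 and Lpar3, the latter at most 1.29 CPM, the list was within 2-fold between the WT WD libraries. Plpp3, a phosphatase that removes the lipid, was at 399 and 419 CPM in WT WD, compared with 376 and 376 CPM in Tas1r3-/- WD, and Lpar1, its receptor in oligodendrocytes, at 23.4 and 33.6 CPM and at 32.3 and 26.8 CPM. The partners of klotho and of folate transport were counted for 14 of 16 listed, and 13 of them were within 2-fold between the WT WD libraries, Folr1 being the exception. Fgfr3, Fgfr1 and Adam10, a pair of fibroblast growth factor receptors and a protease that sheds klotho, were the most abundant, and Fgfr1 was at 177 and 98.4 CPM in WT WD, against 174 and 169 CPM in Tas1r3-/- WD. Both lists gave 0 calls.

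Markers of other cell types were read beside the choroid plexus genes, since several moved with them. Genes of the thalamus and habenula were high in the same library, all 13 of 13 at least 2-fold above WT WD replicate 1, with a summed level of 368 and 2625 CPM in WT WD, versus 358 and 552 CPM in Tas1r3-/- WD and none at 0. Calb2 was the most abundant, at 263 and 583 CPM in WT WD, compared with 211 and 280 CPM in Tas1r3-/- WD. Prkcd, protein kinase C delta, a kinase abundant in thalamic relay neurons, was at 10.7 and 585 CPM in WT WD, against 15.8 and 41.6 CPM in Tas1r3-/- WD, and Tcf7l2, a transcription factor of the thalamus, at 10.8 and 360 CPM and at 26.8 and 42.6 CPM. This list holds Otx2 as well, and in it Tas1r3-/- WD replicate 2 was the second highest library, as it was for Otx2 and not for Ttr. Genes of the hypothalamus went the other way, with Pmch, melanin-concentrating hormone, at 768 and 6.66 CPM in WT WD, versus 373 and 559 CPM in Tas1r3-/- WD. Pomc, the precursor of melanocortins, which the pituitary makes as well, was at 112 and 2.47 CPM in WT WD, compared with 343 and 45.3 CPM in Tas1r3-/- WD. Avp, vasopressin, was at 335 and 2.30 CPM in WT WD, against 197 and 203 CPM in Tas1r3-/- WD, and 5 of the 20 genes, Nkx2-1 and Nr5a1 among them, had under 3 counts in WT WD replicate 2. Without WT WD replicate 2, 10 of the 13 thalamus and habenula genes had log2 fold changes above 0, with a median of 1.20 and 3 called higher, and 16 of the 20 hypothalamus genes were below 0, with a median of -0.53 and 7 called lower (edgeR without the filter, in which 0.459% of all genes were called higher and 0.147% lower). With all libraries the medians of both lists had the opposite sign. All 12 tested thalamus and habenula genes were then below 0, with a median of -2.51. Of the 20 hypothalamus genes 15 were above 0 and 5 below, with a median of 0.41, and 0 genes of either list were called. The part of these genes in the difference of the choroid plexus genes was not tested.

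Red blood cell genes were 6 of 6 at least 2-fold higher in WT WD replicate 2 than in replicate 1, with a summed level of 380 and 1960 CPM in WT WD, versus 770 and 455 CPM in Tas1r3-/- WD. Hba-a1, the most abundant, was at 167 and 859 CPM in WT WD, compared with 343 and 195 CPM in Tas1r3-/- WD. The 5 red blood cell genes tested all had log2 fold changes below 0 between genotypes, with a median of -0.93 and 0 called. Without WT WD replicate 2 the same 5 were all above 0, with a median of 0.67. The ependyma, the ciliated lining of the ventricles, showed 4 of 15 genes at least 2-fold higher and 14 of 15 highest in WT WD replicate 2, with a summed level of 171 and 322 CPM in WT WD, against 156 and 141 CPM in Tas1r3-/- WD. Foxj1, the transcription factor of motile cilia, was at 31.1 and 57.0 CPM in WT WD, versus 27.2 and 30.3 CPM in Tas1r3-/- WD. Ependymal genes thus shared the direction of Ttr at a smaller size. All 15 had log2 fold changes below 0 between genotypes, with a median of -0.73 and 0 called, and without WT WD replicate 2, 12 of the 15 did, with a median of -0.20. The part of blood and ependyma in the result was not tested.

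Tanycytes, the specialised cells of the floor of the third ventricle, were 5 of 15 genes lower and 1 higher in WT WD replicate 2 by at least 2-fold. Col23a1 was at 50.7 and 2.64 CPM in WT WD, compared with 32.0 and 27.3 CPM in Tas1r3-/- WD, while Vim was at 77.4 and 93.5 CPM and at 74.1 and 68.0 CPM. Meningeal genes were measured because the meninges also make Igfbp2 and lie beside the choroid plexus. All 14 were within 2-fold between the WT WD libraries, with a summed level of 412 and 462 CPM, and Ptgds, the most abundant, at 255 and 316 CPM. In Tas1r3-/- WD the meningeal sum was 596 and 406 CPM, and 6 of 14 genes were at least 2-fold lower in replicate 2 than in replicate 1, the direction in which Igfbp2, Folr1 and Ttr differed between those libraries. All 8 pituitary genes were also at least 2-fold lower in replicate 2, and the red blood cell sum was 770 and 455 CPM in these libraries. Of the 13 thalamus and habenula genes, 3 went the other way by at least 2-fold. The part of any of these lists in that difference was not tested.

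Oligodendrocytes and astrocytes make Enpp2 and Igfbp2 respectively. Oligodendrocyte genes summed to 5355 and 6656 CPM in WT WD, compared with 6378 and 6465 CPM in Tas1r3-/- WD, with 11 of 12 within 2-fold between the WT WD libraries, and Mbp, myelin basic protein, was at 2293 and 2810 CPM in WT WD. Astrocyte genes summed to 4907 and 4444 CPM in WT WD, against 4804 and 5016 CPM in Tas1r3-/- WD, with 11 of 12 within 2-fold and Aldoc at 1213 and 1292 CPM in WT WD. The part of these cells in the levels of Enpp2 (2.68-fold higher in WT WD replicate 2 than in replicate 1) and Igfbp2 (5.15-fold) was not tested. Endothelial genes were 10 of 10 within 2-fold (313 and 358 CPM in WT WD, 317 and 302 CPM in Tas1r3-/- WD), and so were the 5 genes of fenestrated endothelium, the kind found in the stroma of the choroid plexus. Plvap, the gene that marks it, was at 25.4 and 17.5 CPM in WT WD, versus 28.9 and 28.4 CPM in Tas1r3-/- WD. Plvap was thus lowest in WT WD replicate 2. The sum of the 5 was highest there, at 586 and 624 CPM in WT WD, compared with 566 and 566 CPM in Tas1r3-/- WD. Most of that sum was Plpp3, which is also in the lysophosphatidic acid list above. Of the 5 genes, 3 were highest and 2 lowest in WT WD replicate 2. Microglial and macrophage genes were 9 of 10 within 2-fold. Of 9 pineal and retinal pigment genes, 4 were counted, and their sum stayed between 12.9 and 19.9 CPM in the 4 libraries. Other abundant genes of these lists were Mobp in oligodendrocytes, Slc1a2 and Slc1a3 in astrocytes, Flt1, Cldn5 and Itm2a in endothelium, Ehd3 in fenestrated endothelium, Csf1r, C1qb and C1qa in microglia, and Rlbp1, Best1 and Lrat among pigment genes. Of these, Slc1a3, a glutamate transporter, was at 827 and 561 CPM in WT WD, against 792 and 795 CPM in Tas1r3-/- WD, and Csf1r, a receptor of microglia, at 93.8 and 78.7 CPM and at 87.5 and 77.8 CPM. Further genes of that rank were Cfap65 and Rsph1 in ependyma, Igf2 and Slc13a3 in meninges, and Hba-a2 and Hbb-bs in red blood cells, where Hba-a1 and Hba-a2 are near-identical copies whose reads may be split uncertainly.

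**Figure D4:**
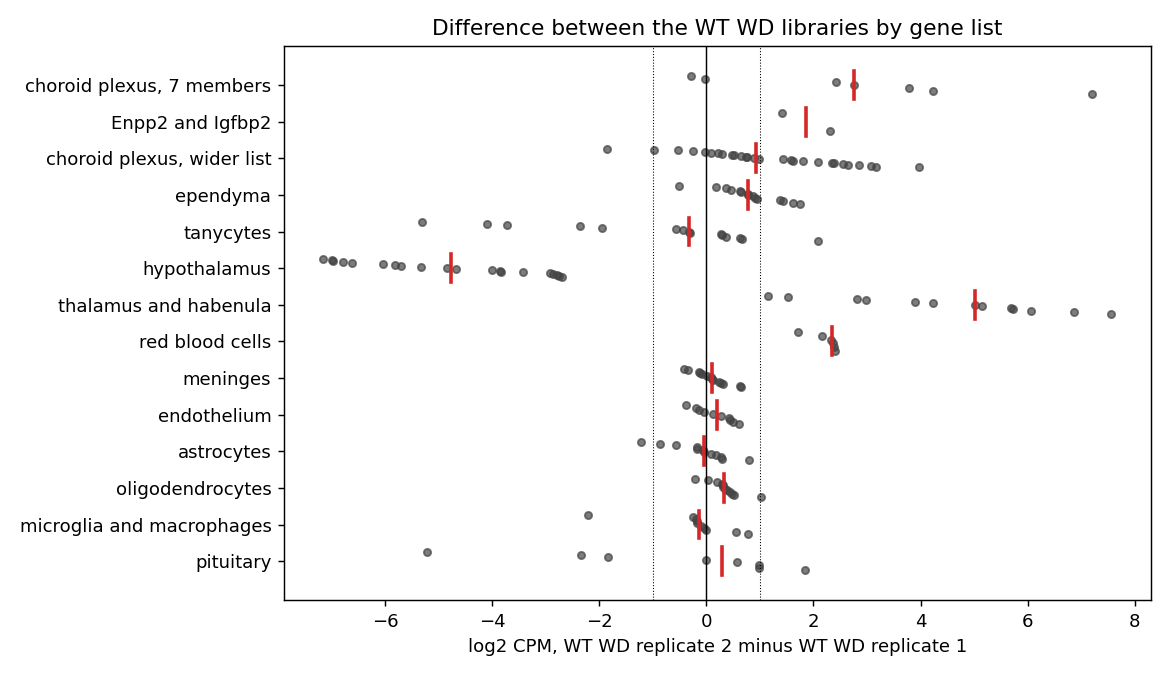
Difference in log2 CPM (prior count 2) between WT WD replicate 2 and WT WD replicate 1 for each gene of each list, with red lines for the list medians and dotted lines at 2-fold. The 7 choroid plexus members other than Enpp2 and Igfbp2 have a median of 2.76 with Kl and Clic6 near 0, the thalamus and habenula lie to the right (5.01) and the hypothalamus to the left (-4.76).

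**Figure D5:**
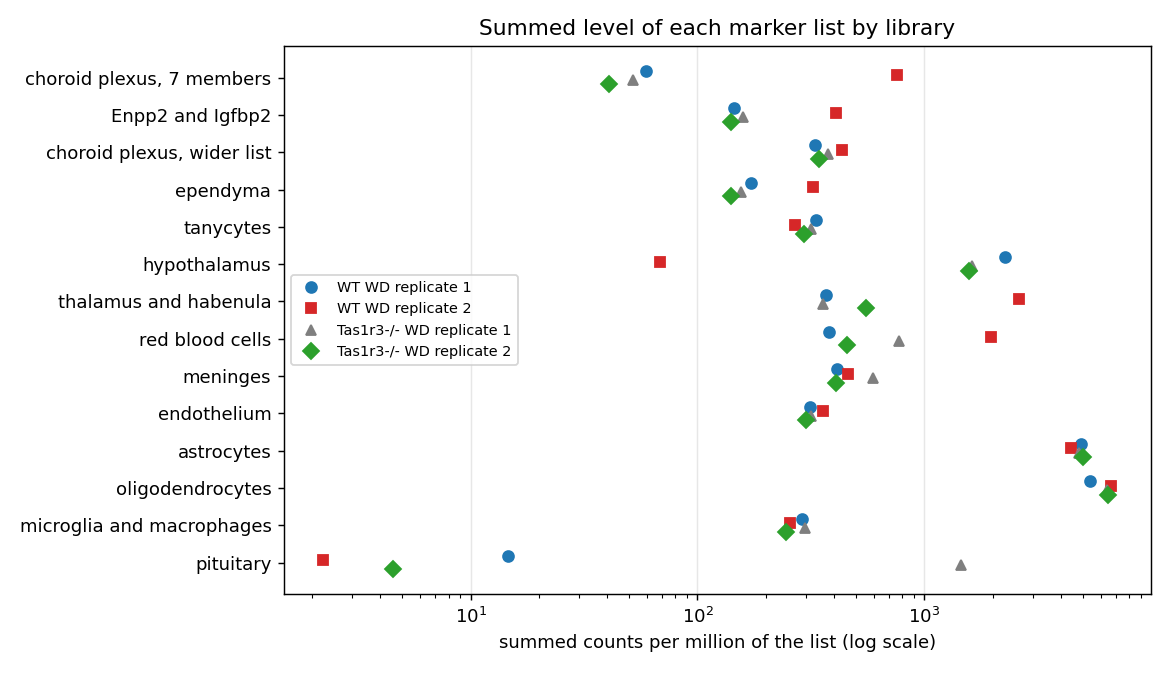
Summed CPM of each list on a log scale, with 1 point per library. The 7 choroid plexus members other than Enpp2 and Igfbp2 stand at 760 CPM in WT WD replicate 2 and between 40.7 and 59.3 CPM in the other libraries, while endothelium, astrocytes, oligodendrocytes and microglia have their 4 points close together, and the pituitary list stands out in Tas1r3-/- WD replicate 1.

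The genes whose pattern over the 4 libraries lay nearest to the mean profile of the 4 tested genes of the 7 were sought among 12408 other tested genes with a mean of at least 5 CPM, by the root mean square difference of centred log2 CPM. They were, in order, Irx1, Cacna2d4, Ano1, Prkcq, Npr1, Necab2, Zic2, Necab3, Nmbr and Rtn4r, with differences from 0.22 to 0.36 against a median of 1.33 over all candidates. Irx1, an Iroquois transcription factor, was at 6.41 and 34.8 CPM in WT WD, versus 4.08 and 4.03 CPM in Tas1r3-/- WD. Necab2, a calcium-binding protein of neurons, was at 82.1 and 435 CPM in WT WD, compared with 78.9 and 79.6 CPM in Tas1r3-/- WD, and Zic2, a zinc finger transcription factor, at 27.8 and 197 CPM and at 27.9 and 32.8 CPM. All 10 were highest in WT WD replicate 2, which follows from choosing them by a profile that is highest there. None of the 10 is in the choroid plexus lists. The profile is a mean over Ttr, Otx2, Kl and Clic6, members that differ, over 4 libraries only.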

How the data were processed

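RNA-seq of the hypothalamus was analysed in 2 WT WD and 2 Tas1r3-/- WD libraries. Per the labels and the study's methods, the authors sequenced rRNA-depleted mRNA as Ion Total-RNA libraries, used STAR within Partek Flow for alignment to mm39, and deposited expected counts (estimated counts) per RefSeq transcript that were not normalized. Among these values, 13.0% were exactly whole, with no tolerance, and the lowest total of a listed transcript was 10. The 30891 of 30930 transcripts that a RefSeq table (GRCm38.p6, names only) paired with a symbol were summed to 16339 genes and rounded for the count models. The other 39, with 0.347% to 2.49% of a library's counts, were left out. A count interval is an exact 95% interval.

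Groups were compared with the quasi-likelihood test of edgeR 4.0.16 under R 4.3.3, using TMM scaling, filterByExpr and Benjamini-Hochberg adjustment, with calls at adjusted p under 0.05 and 1.5-fold. DESeq2 1.42.0, which the study used, limma 3.58.1 (limma-trend, prior count 2), RLE size factors, total counts, no low count filter, at least 10 counts in every library, a replicate block and leaving out each library were alternatives. Scripts were tested on simulated counts. The unfiltered fit of all libraries was planned, and its repeats under the other settings and without a library were added after the data were seen. The members, the lists and these tests were chosen with earlier results of these data known. Genes were named by a rule: all members, the 3 most abundant of each list, the 3 highest and 3 lowest log2 fold changes of the wider list, the 10 nearest in pattern, and Tas1r3. Some genes that this rule names are not reported here. Genes named beside this rule are Wfdc2 and Lpar3, for their low counts, Dio2 and those marked in the text, all chosen after their values were seen. Lengths and chromosomes are from GENCODE M39 on GRCm39, and promoters from RefSeq.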

Additional observations from a re-analysis of the deposited data

How the results depend on the processing

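No member was called under RLE size factors, total counts, no low count filter, DESeq2 or limma-trend, where all 9 were below 0 (Folr1, Slc4a5 and Aqp1 without the filter), from -7.52 for Ttr in DESeq2 to -0.15 for Clic6 with total counts. With at least 10 counts in every library only Kl, Clic6, Enpp2 and Igfbp2 could be fitted, all 4 below 0 with 0 called. The unadjusted p of Ttr was 0.0815 with the replicate block. DESeq2 gave no adjusted p for Slc4a5 and Aqp1. Left out in turn, the libraries gave a log2 fold change from -8.89 to -1.16 for Ttr, -4.58 to 1.35 for Folr1, -1.11 to -0.33 for Kl, -0.30 to 0.0032 for Clic6, -2.97 to 0.37 for Slc4a5, -2.44 to 0.74 for Aqp1, -3.55 to 1.20 for Otx2, -1.37 to 0.046 for Enpp2 and -2.38 to -0.030 for Igfbp2. The highest value of each range except Kl and Clic6 was without WT WD replicate 2, and Clic6 turned above 0 without WT WD replicate 1. With WT WD replicate 1 left out, 7 members were called, with Folr1 at -3.27. In all, 0 genes were called with all libraries and 8 by DESeq2, and 0 to 2120 with a library left out (2120 when WT WD replicate 1 was dropped, 32 when it was WT WD replicate 2). Genes with an unadjusted p under 0.05 numbered 772, 393 in DESeq2 and 93 to 5007 with a library left out; the cause was not tested. Same-numbered libraries had deviations with r = 0.082 across 14344 genes, which does not show the numbers to pair the samples, and with the replicate block 0 genes were called, 667 had p under 0.05 and Ttr was at -5.56 (adjusted p = 0.805). The groups of 5662 tested genes did not overlap, 5695 with RLE and 5635 with total counts. The summed level of the 7 in WT WD replicate 2 was 760 CPM, 763 with RLE, 751 with total counts and 82.1 without Ttr. Per kilobase the Tas1r3-/- WD sums were 14.2 and 9.77, and without Kl and Clic6 they were 7.07 and 4.20 CPM. At 1 to 10 counts for Folr1, Slc4a5 and Aqp1 outside WT WD replicate 2, a difference between the other libraries was not detectable at this depth unless it was several-fold.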
